A study of Mus musculus with 6 samples.

Results

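The ADAM, ADAMTS and MMP metalloproteinases and their TIMP inhibitors were followed in endothelial cells of the embryonic mouse brain, with and without overexpression of Axin1. Members were all gene entries whose symbol is Adam, Adamts or Mmp followed by a number, or Timp1 to Timp4. This gave 78 of the 22958 entries in the tables, and 35 of them were kept because they had 10 or more reads in at least 3 of the 6 libraries. The kept genes were 10 of 32 ADAMs, 12 of 19 ADAMTSs, 10 of 23 MMPs and 3 of 4 TIMPs. All libraries came from cells sorted on CD31 (PECAM1) from embryos of strain C57BL/6 x 129/Sv at embryonic day E11.5, whose mothers had received tamoxifen at E9.5. The 3 control libraries carried the label Cdhrs5CreERT2:R26Axin1IL-/- and the 3 Axin1 libraries the label Cdhrs5CreERT2:R26Axin1IL+/-, so both groups had the inducible Cre line and the drug. The labels do not say what the Cre line's name stands for, how many embryos went into a library or whether libraries shared a litter, so the p-values measure the spread between these libraries only.

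ADAMs are membrane-anchored proteases that release the outer parts of other membrane proteins, among them Notch receptors and growth factor precursors. ADAMTSs are secreted and cut proteoglycans, procollagens and other matrix proteins, and MMPs degrade collagens, gelatins and basement membrane. TIMPs bind the active site of many of these enzymes, and sprouting vessels use the balance between proteases and inhibitors to move through the matrix. Axin1 holds together the proteins that phosphorylate beta-catenin and send it to degradation, and beta-catenin acts on its target genes through TCF/LEF factors.

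The upstream windows of Adamts1 and Adamts9 are shown because both genes encode proteases that cut the proteoglycan versican and both had higher levels in every Axin1 library than in any control. Each run holds the 250 bases before the RefSeq start, 5′ to 3′ on the gene's strand, from GRCm38.p6, which is a later build than the mm9 of the counts. The Adamts1 window is chr16:85803114-85803363 on the minus strand and the Adamts9 window is chr6:92943535-92943784 on the minus strand. Capitals mark the GC box GGGCGG or its reverse complement.
Adamts1: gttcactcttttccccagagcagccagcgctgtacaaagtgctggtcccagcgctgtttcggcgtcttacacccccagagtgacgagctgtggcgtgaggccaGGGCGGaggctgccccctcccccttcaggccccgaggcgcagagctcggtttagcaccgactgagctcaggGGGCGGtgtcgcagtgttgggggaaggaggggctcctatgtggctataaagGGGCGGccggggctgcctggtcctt
Adamts9: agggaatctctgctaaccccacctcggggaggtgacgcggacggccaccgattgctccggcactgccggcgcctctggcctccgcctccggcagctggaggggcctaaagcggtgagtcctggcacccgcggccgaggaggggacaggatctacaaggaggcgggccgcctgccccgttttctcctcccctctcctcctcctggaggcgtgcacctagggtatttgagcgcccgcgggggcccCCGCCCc
The Adamts1 window held 3 GC boxes, beginning 147, 76 and 25 bases before the start, and the Adamts9 window held 1, beginning 7 bases before it. Of the kept genes, 22 had 24 windows in the RefSeq table, and 17 of these windows (70.8%) held a GC box, against 56.6% of the 11632 windows of genes that passed the same read minimum. The TCF/LEF motif CTTTGAT was in 0 of the 24 windows and in 2.19% of the 11632. The AP-1 motif TGANTCA was in 2 windows (8.33%, against 4.43%), those of Mmp13 and of 1 start of Adam19, and the cAMP response element TGACGTCA in 0, against 2.54%. All motifs were searched on both strands, none of the 4 is contained in another, and the absence of a match says only that these letters are not in this window.

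Library totals ranged from 10772492 to 14234409 reads. Axin1 itself read 25.0, 17.6 and 20.8 CPM (counts scaled to the library's normalised size) in controls 1, 2 and 3 and 79.8, 62.2 and 66.2 CPM in Axin1 libraries 1, 2 and 3 (log2 fold change 1.72, edgeR adjusted p 0.0103), in the direction of the labels. All 10 endothelial markers were detected, with summed levels of 7984 to 8275 CPM in the controls and 7751 to 8890 CPM in the Axin1 libraries. Of the 10, 5 had a log2 fold change above 0 (median -0.03), 0 passed in edgeR, 2 were at an unadjusted p under 0.05 and DESeq2 called 1. Over all genes 52.5% were above 0, 0.845% passed in edgeR and 17.2% were under the unadjusted 0.05. DESeq2 called 6.3%, and the groups did not overlap for 23.8%. The groups were apart for Cdh5 (controls at 432, 502 and 846 CPM, Axin1 libraries at 981, 945 and 924 CPM) and, with lower Axin1 values, for Esam (1321, 1206 and 1227 CPM, then 1083, 1026 and 925 CPM). For Cldn5 the controls stood at 44.0, 48.2 and 196 CPM against 186, 275 and 242 CPM with Axin1 overexpression, so that control 3 lay among the latter. Control 3 stood apart for several genes, and leaving it out raised the number of genes called over the whole table from 107 to 695. Markers of other cell types were detected in the sorted cells as well. The 10 macrophage markers summed to 430 to 809 CPM in the controls and to 230, 1167 and 2550 CPM in Axin1 libraries 1, 2 and 3. The 14 pericyte and mesenchyme markers summed to 76.7 to 154 CPM and 130.0 to 193 CPM, the 6 megakaryocyte and platelet markers to 1097 to 1213 CPM and 449 to 2024 CPM, and the 5 erythroid markers to 686 to 3009 CPM and 238 to 2620 CPM. The 8 neural markers summed to 174 to 345 CPM and 235 to 263 CPM, and the 7 neutrophil and myeloid precursor markers to 185 to 407 CPM and 109 to 368 CPM. A single gene gave the largest part of each of these 2 sums. Nes read 155 to 214 CPM in the controls and 172 to 235 CPM in the Axin1 libraries, and Mpo 181 to 393 CPM and 106 to 333 CPM. No marker of any of these lists was at 0 in all 6 libraries.

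The most abundant member was Timp3, which encodes the matrix-bound inhibitor of ADAM17, several ADAMTSs and MMPs. Levels between genes are compared in the deposited RPKM, which divides a gene's reads by its length and by the library total. Timp3 read 210.5, 190 and 165 RPKM in the controls, a mean above that of 95.3% of all genes that passed the read minimum, and it made up 85.1% to 94.5% of the summed RPKM of the TIMPs in every library. Adam10, the protease that makes the activating cut in Notch receptors, came next in the controls with 76.5 ± 11.7 RPKM (SD, n = 3), followed by Adam17, which releases tumour necrosis factor from the membrane, with 36.7 ± 2.29 RPKM, and Mmp2, the gelatinase that cuts type IV collagen, with 35.1 ± 19.0 RPKM. The intervals spanned by Adam17 and Mmp2 in the controls overlapped (34.2 to 38.8 and 23.1 to 57.1 RPKM), so those neighbours did not differ beyond their spread.

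Timp1 (28.8 ± 4.38 RPKM), Mmp14 (25.5 ± 2.10), Adam19 (20.5 ± 3.03), Adamts1 (19.6 ± 4.37), Adam15 (19.2 ± 0.999) and Mmp25 (18.3 ± 6.04) formed a middle tier in the controls, in which each neighbour overlapped the next. Adamts10, Adamts4 and Mmp15 lay at 12.1 ± 0.680, 12.0 ± 0.905 and 9.95 ± 1.10 RPKM. Adamts1 was thus the leading ADAMTS in both groups, and it held 32.8% to 45.9% of the ADAMTS total in the controls and 45.4% to 60.5% in the Axin1 libraries. The remaining 22 kept genes had control means between 0.111 RPKM for Adamts18 and 5.29 RPKM for Adam12.

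**Figure D1:**
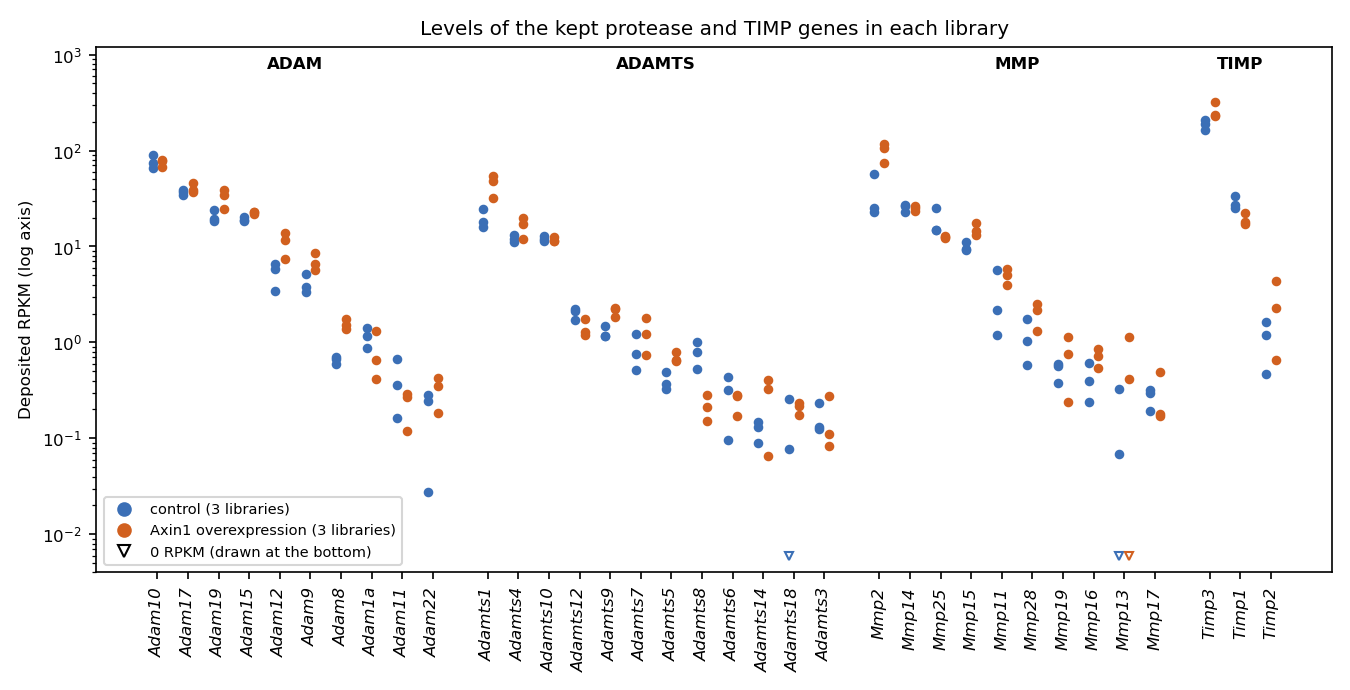
Deposited RPKM (log axis) of the 35 kept genes in each of the 6 libraries, by family and in order of mean level; blue points are controls, orange points Axin1 libraries, and open triangles stand for 0 RPKM. Timp3 lies highest, at 165 to 322 RPKM, and the orange points of Mmp2 and Adamts1 lie above all their blue points.

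Of the 43 entries that were not kept, 20 had no read in any library. These were 12 ADAMs, Adamts13, which cuts von Willebrand factor, and 7 MMPs, among them the collagenase genes Mmp1a and Mmp1b and the stromelysin genes Mmp3 and Mmp10. A count of 0 allowed at most 0.211 to 0.278 CPM, depending on the library (3 reads, counting error only). The other 23 had at most 22 reads in a library and at most 0.631 RPKM. The gelatinase gene Mmp9 was among them, with 9, 2 and 6 reads in the controls and 4, 17 and 19 in the Axin1 libraries. Close to the read minimum, Adamts14 (8, 10 and 5 reads in controls, 27, 24 and 4 in Axin1 libraries) and Mmp13 (0, 12 and 2, then 0, 16 and 36) were kept, and Adamts15 (6, 5 and 18, then 6, 22 and 8) was not. Of the 35 kept genes, 25 had 10 or more reads in every library, 3 reached it in all controls but not in all Axin1 libraries, 3 the other way round and 4 in neither group completely. Adamts14 did not pass the expression filter of the test, which left 34 members tested.

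In the comparison of Axin1 libraries with controls, 0 of the 34 members passed the threshold of 0.05 on p-values from edgeR's quasi-likelihood model, adjusted by Benjamini and Hochberg's method across the 12661 genes in the fit. Over all genes 0.845% passed, 0.355% with higher and 0.49% with lower levels in the Axin1 libraries. At an unadjusted p under 0.05 there were 15 of the 34 members (44.1%), against 17.2% of all genes, 11 of them higher in the Axin1 libraries (32.4%, against 9.06%) and 4 lower (11.8%, against 8.14%). In CPM the groups did not overlap for 15 members (44.1%, against 23.8% of all genes). Of the 34, 11 were apart with higher and 4 with lower levels in the Axin1 libraries, against 11.3% and 12.4% of all genes. All of these but Adam15 were also under the unadjusted 0.05. DESeq2 gave an adjusted p for 22 members and called 4 of them (6.3% over all its genes), Adamts1, Mmp2, Adam12 and Adam19, all higher. The median log2 fold change was 0.52 over the 34 members and 0.02 over all tested genes, and 23 of the 34 were above 0, against 52.5% of all genes. Members were kept partly through their own counts, and the set was proposed with results of these data in view, so these shares describe the members and are no test of them.

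**Figure D2:**
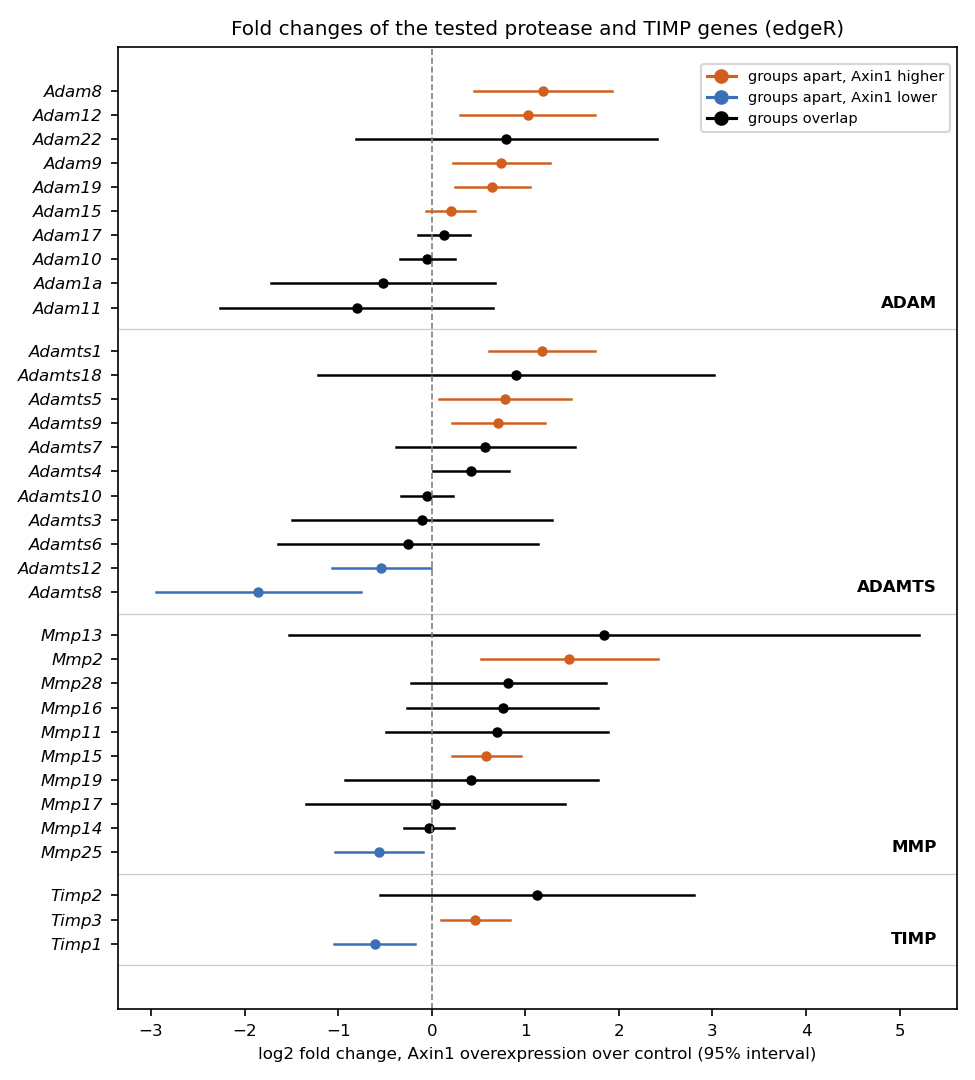
Log2 fold change of the 34 tested members, Axin1 overexpression over control, with 95% confidence intervals from edgeR; orange and blue mark genes whose 3 Axin1 libraries all lie above or all below the 3 controls, black those whose groups overlap. Of the 15 coloured genes 11 are orange and 4 are blue, and no gene had an adjusted p under 0.05.

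Summed by family, the deposited RPKM of the ADAMTSs read 53.3, 47.9 and 49.1 in the controls and 89.0, 71.1 and 79.8 in the Axin1 libraries. For the MMPs the sums were 77.2, 78.8 and 128 RPKM against 167, 181 and 135 RPKM, and for the TIMPs 245, 216 and 193 against 341, 261 and 251 RPKM. The ADAM sums lay closer, at 153, 179 and 165 RPKM in the controls and 190.4, 193.5 and 193.3 RPKM in the Axin1 libraries. In each family the lowest Axin1 library lay above the highest control, by the smallest margins for the TIMPs and MMPs. These sums rest on few genes, since Timp3, Mmp2 and Adamts1 alone made up 90.7% to 94.5%, 54.7% to 64.1% and 45.4% to 60.5% of their family's sum in the Axin1 libraries. Adam10 made up 35.3% to 40.8% of the ADAM sum there, but its means were 76.5 RPKM in the controls and 74.8 RPKM in the Axin1 libraries. Adam19 had means of 20.5 and 32.4 RPKM. How often the sums of other gene groups lie apart was not tested.

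Among the ADAMTSs that cut proteoglycans, Adamts1 (NM_009621), a protease of versican and aggrecan, read 124, 89.5 and 78.7 CPM in controls 1, 2 and 3 and 266, 156 and 239 CPM in Axin1 libraries 1, 2 and 3. Its lowest Axin1 library thus stood above its highest control. The means were 97.4 ± 23.7 and 220.3 ± 57.2 CPM (SD, n = 3 each), a 2.26-fold difference with a log2 fold change of 1.18 (SE 0.24, 95% confidence interval 0.61 to 1.74) and an edgeR adjusted p of 0.0798. This was the smallest p of all members, and DESeq2 gave an adjusted p of 7.89e-05. In the 6 fits that left out 1 library, the log2 fold change stayed between 1.02 and 1.38 with an edgeR adjusted p of 0.0949 to 0.284.

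Adamts1 is inducible in many cells together with immediate early genes. The 17 immediate early and dissociation genes summed to 4021, 2789 and 2131 CPM in the controls and 3580, 2896 and 4556 CPM in the Axin1 libraries, and the sums overlapped. Within that list, 5 genes had higher levels in every Axin1 library (Fosb, Jun, Junb, Atf3 and Hspa1a) and 0 lower. Over all genes these shares were 11.3% and 12.4%. Of the 17, 0 passed edgeR's test (against 0.845% of all genes) and DESeq2 called 2 (against 6.3%). At an unadjusted p under 0.05 there were 6 (against 17.2%), and the median log2 fold change was 0.43. Junb, a subunit of the AP-1 factor, read 7.18, 3.91 and 4.14 CPM in the controls and 11.7, 12.5 and 28.0 CPM in the Axin1 libraries. Control 1 had a larger summed level of the listed genes than Axin1 libraries 1 and 2, and less Adamts1 than either. Single genes of the list differed from the sum. Atf3 read 151, 67.8 and 83.2 CPM in the controls and 304, 162 and 470 CPM in the Axin1 libraries. The part of the listed genes in the Adamts1 difference was not tested.

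Adamts9 (NM_175314), a broadly expressed versican-cutting protease, lay far lower, at 7.26, 9.13 and 7.08 CPM in the controls and 13.7, 13.6 and 11.2 CPM in the Axin1 libraries. The groups were apart and the spread within each was small. The log2 fold change was 0.71 (SE 0.22, 95% confidence interval 0.22 to 1.21, 1.64-fold) with an edgeR adjusted p of 0.156. Adamts5, an aggrecan-cutting protease, read 3.06, 3.99 and 2.57 CPM in the controls and 5.27, 6.20 and 5.10 CPM in the Axin1 libraries (log2 0.78, edgeR adjusted p 0.246), again without overlap. Adamts4, the other main aggrecanase, overlapped between groups, at 41.7 to 47.9 CPM in the controls and 64.5, 71.1 and 45.0 CPM in Axin1 libraries 1, 2 and 3 (log2 0.42, edgeR adjusted p 0.272).

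Adamts8 was the member with the lowest fold change. It had 23, 38 and 40 reads in the controls and 13, 8 and 9 in the Axin1 libraries, which came to 2.01, 2.91 and 3.68 CPM against 1.04, 0.551 and 0.778 CPM. The controls lay above all Axin1 libraries, by 3.62-fold in the model (log2 -1.85, SE 0.48, 95% confidence interval -2.95 to -0.76, edgeR adjusted p 0.113). With so few reads the interval was wide, and DESeq2 gave no adjusted p for this gene. Adamts8 reached 10 reads in all 3 controls but in only 1 Axin1 library. It was thus kept through the group in which it was high, and its lower Axin1 level is partly tied to that filter.

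The other ADAMTSs act on other matrix proteins. Adamts10, which binds fibrillin, read 46.0 to 52.3 CPM over all 6 libraries (log2 -0.05, edgeR adjusted p 0.884, 95% confidence interval -0.32 to 0.23). Adamts12, a protease of cartilage oligomeric matrix protein, read 11.03, 14.2 and 13.3 CPM in the controls and 7.59, 7.99 and 10.98 CPM in the Axin1 libraries, with log2 -0.54 and an edgeR adjusted p of 0.283. Its groups nearly touched without overlapping in CPM. In deposited RPKM they overlapped, with control 1 at 1.705 and Axin1 library 3 at 1.738. Adamts7, which shares that substrate, had log2 0.57 with overlapping groups (edgeR adjusted p 0.533). Adamts3, a procollagen protease, Adamts6 and Adamts18 stood below 2.2 CPM in every library and had wide 95% confidence intervals, which reached -1.22 or lower and 1.13 or higher on the log2 scale.

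**Figure D3:**
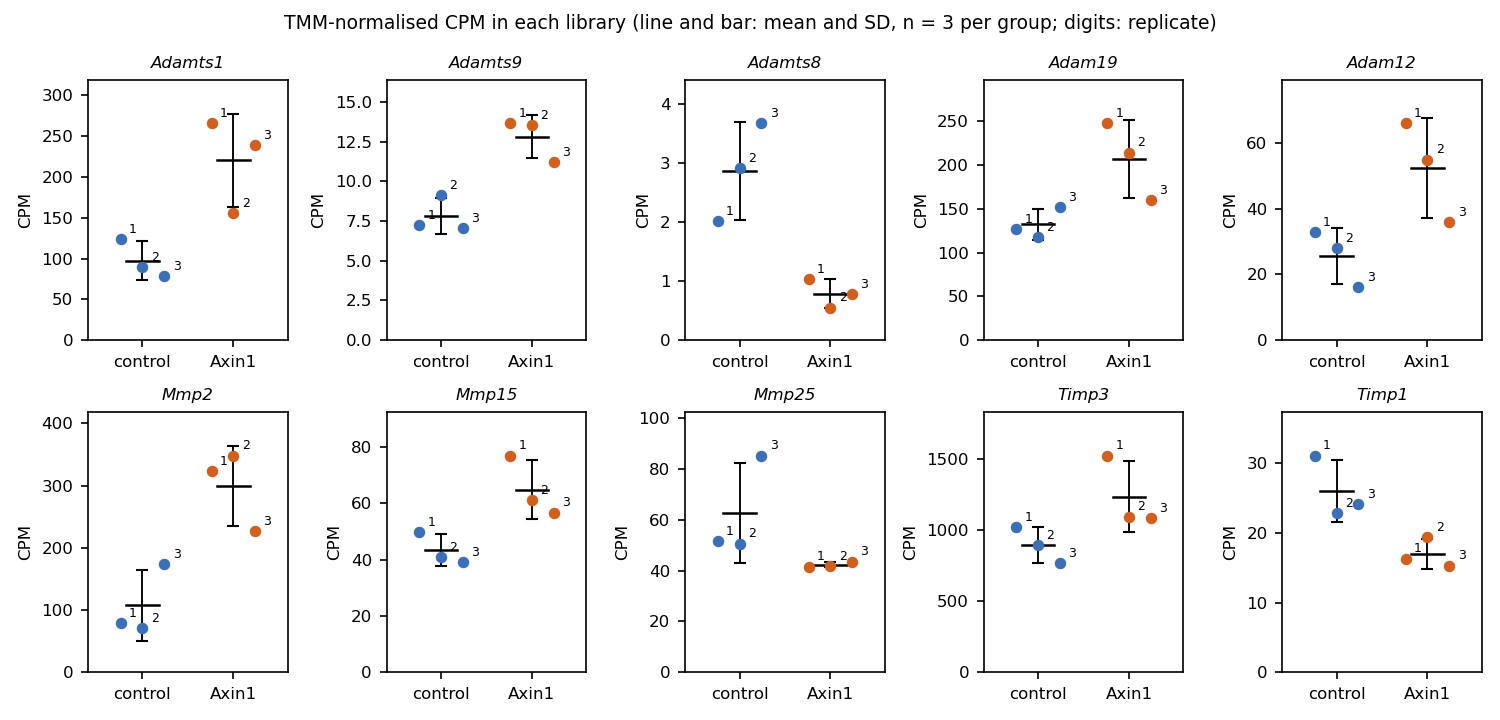
TMM-normalised CPM of 10 members in each library, with the mean and SD of each group (n = 3) and the replicate number beside each point; each axis starts at 0. The groups do not overlap in any panel, with lower Axin1 values for Adamts8, Mmp25 and Timp1. All 10 come from the 15 of 34 tested members whose groups were apart, so the separation follows from that choice. Over all genes the groups did not overlap for 23.8%. Control 3 is the highest control for Adamts8, Adam19, Mmp2 and Mmp25.

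The main sheddases were level between the groups. Adam10 read 315, 413 and 341 CPM in the controls and 313, 355 and 367 CPM in the Axin1 libraries, with a log2 fold change of -0.05 (95% confidence interval -0.34 to 0.25, edgeR adjusted p 0.893) whose sign turned when control 2 or Axin1 library 1 was left out (0.07 and 0.02). Adam17 read 153, 169 and 160 CPM against 169, 156 and 203 CPM (log2 0.13, edgeR adjusted p 0.636, 95% confidence interval -0.15 to 0.41). The interval of each gene leaves out a 1.5-fold difference. Adam15, a sheddase with an integrin-binding site that endothelial cells express, read 61.0, 55.1 and 53.6 CPM against 66.8, 65.2 and 63.2 CPM, a small difference without overlap (log2 0.20, edgeR adjusted p 0.412).

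The meltrin genes Adam12 and Adam19, whose products shed growth factor precursors, had higher levels in every Axin1 library than in any control. Adam19 (NM_009616) read 127, 118 and 152 CPM in the controls and 248, 214 and 160 CPM in the Axin1 libraries. Axin1 library 3 stood only just above control 3. The log2 fold change was 0.65 (SE 0.17, 95% confidence interval 0.25 to 1.046, 1.57-fold) with an adjusted p of 0.121 in edgeR and 0.0246 in DESeq2. Adam12 (NM_007400) read 32.8, 28.0 and 16.2 CPM in the controls and 65.9, 54.9 and 36.0 CPM in the Axin1 libraries, a 2.04-fold difference (log2 1.03, SE 0.31, adjusted p 0.164 in edgeR and 0.0163 in DESeq2). For both genes Axin1 library 3 was the lowest of its group.

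Adam9, the third meltrin, read 13.8, 20.8 and 14.98 CPM in the controls and 22.9, 25.5 and 34.7 CPM in the Axin1 libraries (log2 0.74, edgeR adjusted p 0.157). Adam8, a sheddase best known from leukocytes, had 20 to 27 reads in the controls and 53 to 76 in the Axin1 libraries, or 2.28, 2.07 and 1.84 CPM against 4.23, 5.23 and 4.67 CPM. This was a 2.28-fold difference (log2 1.19, SE 0.33, edgeR adjusted p 0.124). Axin1 library 1, which had the lowest summed level of macrophage markers of all 6 libraries (230 CPM), had more Adam8 than any control (4.23 CPM), and the part of leukocytes in the Adam8 difference was not tested. Adam11 and Adam22, which lack a working active site and bind partners at synapses, stood at 0.559 to 3.40 and 0.263 to 3.86 CPM with overlapping groups. Adam1a, whose mouse paralogue Adam1b was not kept, overlapped too (log2 -0.52, edgeR adjusted p 0.663).

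Among the MMPs the largest difference with groups apart was that of Mmp2 (NM_008610). It read 79.4, 71.0 and 174 CPM in controls 1, 2 and 3 and 323, 348 and 227 CPM in Axin1 libraries 1, 2 and 3. Control 3 stood far above the other controls, yet below every Axin1 library. The means were 108 ± 57.0 and 299.6 ± 64.1 CPM (SD, n = 3 each), with a log2 fold change of 1.47 (SE 0.39, 95% confidence interval 0.53 to 2.42, 2.77-fold) and an adjusted p of 0.15 in edgeR and 6.61e-05 in DESeq2. When control 3 was left out the difference grew to 1.98 on the log2 scale and passed (edgeR adjusted p 0.00197), in a fit that called 5.37% of all genes. The other fits that left out 1 library gave 1.24 to 1.64 and adjusted p-values of 0.221 to 0.365.

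Mmp2 is also expressed by mesenchymal cells. Their markers Col1a1 and Col1a2 read 1.40, 2.38 and 13.0 CPM and 2.98, 9.28 and 20.9 CPM in the controls, highest in control 3, and 3.44, 17.6 and 16.9 CPM and 7.59, 36.8 and 26.4 CPM in the Axin1 libraries. The summed pericyte and mesenchyme markers, of which 13 of 14 were tested and 0 passed in edgeR or DESeq2 or had an unadjusted p under 0.05 in edgeR, overlapped between groups, with 10 of the 13 above 0 (median log2 0.575). Over all genes 17.2% had an unadjusted p under 0.05 in edgeR and 52.5% were above 0. Axin1 library 1 had a smaller marker sum than control 3 (130.0 and 154 CPM) and more Mmp2 (323 and 174 CPM). The part of such cells in the Mmp2 difference was not tested. In sorted bulk cells, more cells of a type and more RNA per cell cannot be told apart.

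Mmp14, the membrane-type MMP that activates the MMP2 proenzyme, was level, at 60.7, 67.2 and 68.6 CPM in the controls and 65.2, 66.8 and 60.6 CPM in the Axin1 libraries (log2 -0.03, edgeR adjusted p 0.932, 95% confidence interval -0.29 to 0.24). The sign of that difference turned when Axin1 library 3 was left out (0.01). Mmp15, another transmembrane type, read 49.8, 40.9 and 39.2 CPM against 76.9, 61.1 and 56.7 CPM, without overlap (log2 0.58, SE 0.16, edgeR adjusted p 0.126). Mmp25, which is held in the membrane by a lipid anchor, went the other way, at 51.6, 50.5 and 85.1 CPM in the controls and 41.5, 41.8 and 43.5 CPM in the Axin1 libraries (log2 -0.56, edgeR adjusted p 0.219). Leaving out control 3, its highest library, brought Mmp25 to -0.29. Mmp16 and Mmp17 stood at 1.14 to 3.93 and 0.62 to 1.73 CPM, with overlapping groups.

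The other secreted MMPs were low and varied within groups. Mmp11, the stromelysin cleaved inside the cell, read 2.80, 4.98 and 12.8 CPM in the controls and 8.95, 12.8 and 11.497 CPM in the Axin1 libraries, so that control 3 lay among the Axin1 libraries (log2 0.70, edgeR adjusted p 0.537). Leaving out control 3 gave 1.49 on the log2 scale and an edgeR adjusted p of 0.0449. Mmp13, a collagenase, had 0, 0.920 and 0.184 CPM in the controls and 0, 1.10 and 3.11 CPM in the Axin1 libraries. The 3 libraries with the most Mmp13 were also the 3 highest for the macrophage marker C1qb, at 94.9, 156 and 83.4 CPM and 46.7, 271 and 496 CPM. Mmp28 and Mmp19 read 1.40 to 5.78 and 0.639 to 2.85 CPM, with overlapping groups.

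Of the inhibitors, Timp3 (NM_011595) read 1020, 894 and 769 CPM in the controls and 1522, 1094 and 1085 CPM in the Axin1 libraries. All Axin1 libraries lay above all controls, library 1 by the widest margin. The log2 fold change was 0.46 (SE 0.16, 95% confidence interval 0.09 to 0.84, 1.38-fold) with an edgeR adjusted p of 0.2. Timp1, a soluble inhibitor of many MMPs, lay in the opposite direction, at 31.1, 22.9 and 24.1 CPM in the controls and 16.3, 19.4 and 15.3 CPM in the Axin1 libraries (log2 -0.61, SE 0.19, 1.53-fold lower, edgeR adjusted p 0.158). Timp2, which links MMP14 to the MMP2 proenzyme at the cell surface, overlapped widely, at 1.75, 4.37 and 5.98 CPM against 2.40, 8.13 and 15.9 CPM (log2 1.12, edgeR adjusted p 0.475, 95% confidence interval -0.55 to 2.80).

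Timp2 was lowest in control 1 and Axin1 library 1 and highest in Axin1 library 3, the library with the highest summed level of macrophage markers. Among the controls it was highest in control 3 (5.98 CPM), which had the lowest macrophage sum of the controls (430 CPM). The summed erythroid markers rose in the same order as Timp2 within each group. They read 686, 1838 and 3009 CPM in the controls and 238, 1239 and 2620 CPM in the Axin1 libraries. All 10 macrophage markers were tested and lay above 0 (median log2 1.29), but 0 of them passed in edgeR or DESeq2, 0 had an unadjusted p under 0.05 in edgeR, and their summed levels overlapped between the groups. Over all genes 52.5% were above 0 and 17.2% had an unadjusted p under 0.05 in edgeR. Whether other cells carried the differences in Timp2 or Mmp13 was not tested.

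**Figure D4:**
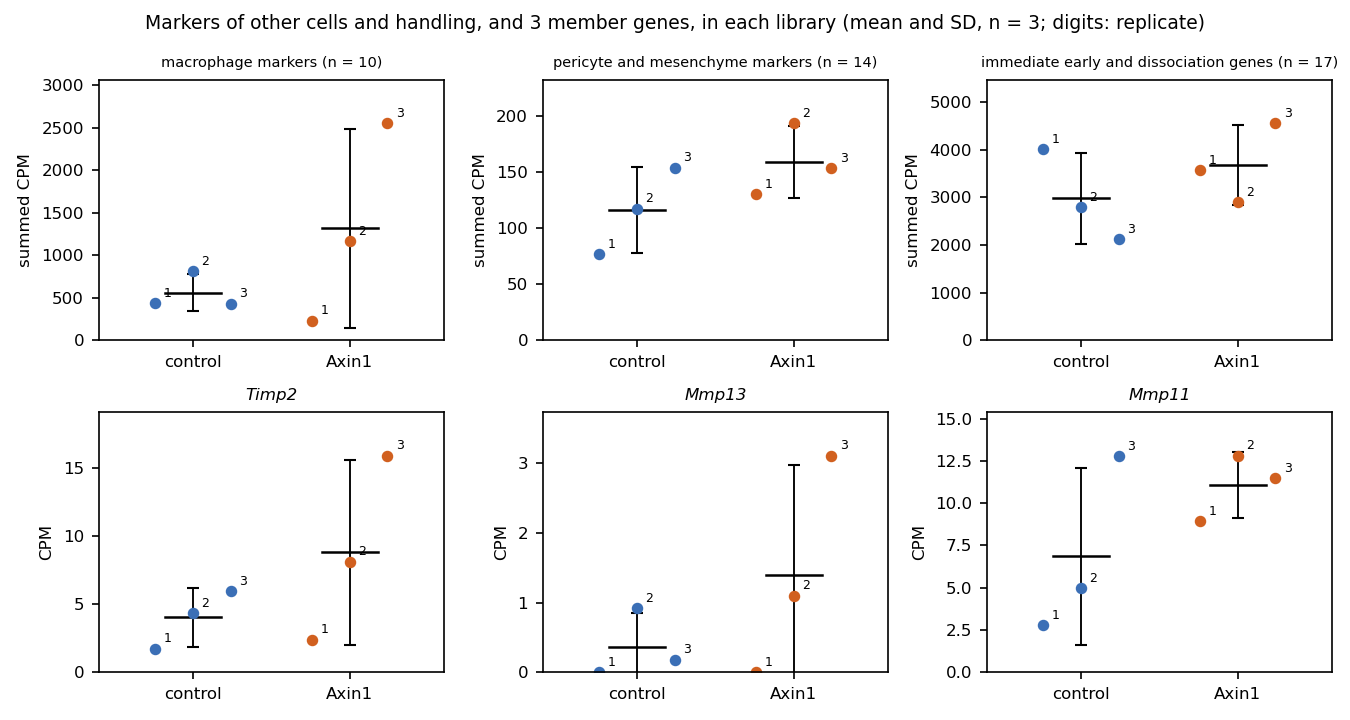
Upper row, summed CPM of macrophage markers, of pericyte and mesenchyme markers and of immediate early and dissociation genes in each library; lower row, CPM of Timp2, Mmp13 and Mmp11. Bars give mean and SD (n = 3, cut off at 0) and digits the replicate. Axin1 library 3 is highest for macrophage markers (2550 CPM), Timp2 (15.9 CPM) and Mmp13 (3.11 CPM). Among the controls, Timp2 is highest in control 3 (5.98 CPM), where the macrophage sum is lowest (430 CPM).

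Exons of 13 of the 35 kept genes overlap those of another gene in the GENCODE M21 annotation, mostly on the opposite strand, and the strand setting of the counts is not given in the sources used here. Among the genes described above these are Adam8, Adam15, Adam17, Adam19, Adamts4, Adamts7, Adamts8, Adamts9, Mmp11, Mmp19, Mmp28, Timp3 and Adam1a. Reads of Timp3 and Syn3, for example, may therefore not be fully separated.

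The genes that act on or with these proteases were read from the same fit. Of 19 tested regulators of ADAMs and MMPs, 0 passed edgeR's test (against 0.845% of all genes) and DESeq2 called 2 (against 6.3%). At an unadjusted p under 0.05 there were 5 (against 17.2%), and the median log2 fold change was 0.02. Rhbdf2, which carries ADAM17 to the cell surface, read 11.6, 17.9 and 18.6 CPM in the controls and 24.9, 31.9 and 31.1 CPM in the Axin1 libraries (log2 0.87, SE 0.22, edgeR adjusted p 0.107). Thbs2, a matricellular protein that binds MMP2, stood at 0.963 to 1.46 CPM and 2.51 to 3.84 CPM (log2 1.47, edgeR adjusted p 0.139). Spock2, a testican proteoglycan and the other DESeq2 call beside Rhbdf2, went the other way, with controls at 12.5, 32.1 and 66.6 CPM against Axin1 libraries at 1.68, 5.85 and 9.85 CPM (log2 -2.68, edgeR adjusted p 0.21), and was named after its values were seen. Bsg, the MMP inducer basigin, named here after its values were seen, read 48.5, 44.9 and 254 CPM in the controls and 250.1, 252.3 and 230.5 CPM in the Axin1 libraries. Control 3 thus lay with the Axin1 libraries for Bsg, as it did for Mmp11.

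Of 8 tested plasminogen system genes 0 passed in edgeR (against 0.845% of all genes) and 1 in DESeq2 (against 6.3%). The median log2 fold change was 0.20, and 2 genes were at an unadjusted p under 0.05 in edgeR (against 17.2%). The 2 were Plaur, the urokinase receptor gene (50.9, 30.6 and 31.6 CPM against 60.2, 53.7 and 94.1 CPM, log2 0.88, edgeR adjusted p 0.178), and Serpine2, which encodes protease nexin-1 (31.0, 23.2 and 85.5 CPM against 132, 156 and 106 CPM, log2 1.497, edgeR adjusted p 0.245). Of 9 tested other metalloproteinases and ADAMTS-like genes 1 passed in edgeR (against 0.845% of all genes), with lower Axin1 values (median log2 -0.12). DESeq2 called 1 (against 6.3%), and 1 was at an unadjusted p under 0.05 (against 17.2%). This was in each case Adamtsl2 (log2 -1.02, edgeR adjusted p 0.0181), a relative of the ADAMTSs without a protease domain. Ece2, an endothelin-converting enzyme and next by p, stood at log2 -0.23 (edgeR adjusted p 0.446). For Adamtsl2 no call was made without control 2, Axin1 library 2 or Axin1 library 3. Those fits called 0, 0 and 18 genes over the whole table.

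Of 24 tested matrix substrates 1 (Fn1) passed in edgeR (against 0.845% of all genes), with lower Axin1 values (median log2 0.05). DESeq2 called 3 (against 6.3%), all lower, and 4 were at an unadjusted p under 0.05 (against 17.2%). The groups were apart for 4 with lower and 0 with higher Axin1 values, against 12.4% and 11.3% of all genes. Fibronectin, Fn1, read 853, 900 and 1053 CPM against 613, 521 and 598 CPM (log2 -0.70, edgeR adjusted p 0.0438), and Hapln3, a link protein of hyaluronan and proteoglycans, read 43.0, 43.5 and 43.5 CPM against 13.9, 25.1 and 21.8 CPM (log2 -1.09, edgeR adjusted p 0.0594). The versican gene Vcan, named as the shared substrate of Adamts1 and Adamts9, stood at 1.75, 7.13 and 20.5 CPM in the controls and 6.23, 10.3 and 13.1 CPM in the Axin1 libraries (log2 0.02, edgeR adjusted p 0.996). Of 25 tested membrane substrates of ADAM10 and ADAM17 1 passed in edgeR (against 0.845% of all genes), with lower Axin1 values (median log2 0.08). DESeq2 called 3 (against 6.3%), 2 higher and 1 lower, and 7 were at an unadjusted p under 0.05 (against 17.2%). The groups were apart for 5 with higher and 4 with lower Axin1 values, against 11.3% and 12.4% of all genes. The edgeR call was the Notch ligand gene Jag1 (log2 -0.74, edgeR adjusted p 0.0452). The guidance receptor gene Robo1, next by p, read 54.1, 65.8 and 60.9 CPM against 92.9, 97.3 and 91.9 CPM (log2 0.64, edgeR adjusted p 0.0523). Neither Fn1 nor Jag1 was called without control 1, control 2 or any 1 of the 3 Axin1 libraries. Those fits called few genes of the whole table, 10 and 0 without controls 1 and 2, and 33, 0 and 18 without Axin1 libraries 1, 2 and 3. The lost calls are thus not particular to these genes.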

How the data were processed

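RNA of CD31-sorted cells was sequenced in 3 control and 3 Axin1 libraries. For each library the authors deposited whole-number read counts and RPKM values of RefSeq entries, as read per the file headers. Bowtie and the build mm9 are named in the submitters' processing notes, while no source used here names the counting program or the strand setting. Counts were used as deposited. Genes were filtered with filterByExpr (minimum count 10, minimum total 15) and tested with edgeR 4.0.16 (R 4.3.3; quasi-likelihood, robust, TMM, no covariates; Benjamini-Hochberg over 12661 genes). CPM are TMM-normalised. The standard error is the log2 fold change divided by the square root of F. The alternatives used DESeq2 1.42.0, limma 3.58.1 (log2(RPKM + 1) and log2(RPKM + 0.1)), other scalings and filters, replicate blocks and each library left out. The model was tested on simulated counts with 200 changed genes.

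The members, lists and naming rule were chosen with earlier results of these data known. Named members were Adamts1 and Adamts9, those called in the main fit or in an alternative over all libraries, and in each family the 4 with the highest mean RPKM and the 2 with the smallest p. In related lists the called genes and the 2 with the smallest p were named. Other members are given more briefly. Of the list entries, Plgrkt and Map2 were not matched by symbol.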

Additional observations from a re-analysis of the deposited data

How the results depend on the processing

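With 3 libraries a group, the number of calls over all genes moved from 107 to 672 with DESeq2, 197 without a filter on low counts and 51 without the robust fit, and lay between 0 and 695 when 1 library was left out (0 without control 2 or Axin1 library 2, 695 without control 3). For the members, 0 in the main analysis, the count was 4 with DESeq2 (18.2% of the 22 with an adjusted p, against 6.3% of all genes). It was 0 to 2 with 1 library left out. The 2 were Mmp2 and Mmp11 without control 3 (5.71% of members, against 5.37% of all genes). For regulators the count was 2 with DESeq2 and 0 to 1 with 1 library left out. For the plasminogen system it was 1 and 0 to 1, and for other metalloproteinases 0 to 1 with 1 library left out. Matrix substrates had 3 calls with DESeq2, 2 with limma-voom, 2 without a filter, 0 without the robust fit, 0 on log2(RPKM + 1), 0 on log2(RPKM + 0.1) and 0 to 3 with 1 library left out. Membrane substrates had 3, 2, 2, 0, 0 and 0 under the same settings and 0 to 4. The main fit tested 19 regulators, 8 plasminogen system genes, 9 other metalloproteinases, 24 matrix and 25 membrane substrates. Over all genes the share called was 6.3% with DESeq2, 1.04% with limma-voom, 1.11% without a filter and 0.403% without the robust fit. It was 0.837% on log2(RPKM + 1) and 0.798% on log2(RPKM + 0.1). With 1 library left out it ran from 0 to 5.37%, highest without control 3. The cause of the changes in these counts was not tested.

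The correlations of same-numbered deviations were 0.234, 0.152 and -0.023 by description number. The pairs numbered 1 and 2 also share a title number, and the pair numbered 3 does not. So few values cannot decide whether the libraries are paired. With the description number as a replicate block, 2 members (5.88%, against 0.829% of all genes) were called (Adam12 and Adamts1). Of the lists, 1 of 19 tested regulators and 0 of 25 membrane substrates were called. Control 1 correlated best with its own number, and the other 2 controls did not. Only 2 numbers in the titles are shared between groups. With them as a replicate block in 4 libraries the calls were 1500 over all genes (11.9%) and 8 members (23.5%). These members were Adamts1, Adamts4, Adam12, Adam19, Mmp2, Mmp11, Mmp15 and Timp3. In the lists, 3 of 19 tested regulators, 1 of 8 plasminogen system genes, 7 of 23 matrix and 5 of 25 membrane substrates were called. The same 4 libraries without a block, an alternative chosen after seeing the data, gave 512 (4.05%), 3 (8.82%), 1, 1, 2 and 3.

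Of 22 member fold changes followed, 20 kept their direction in all 18 alternatives. These genes were picked partly for a small p or a call in these data, and Adam9, Adamts5 and Mmp11 were added outside the naming rule. The alternatives reuse the same 6 libraries, so the count is no independent test of direction. Adam10 turned to 0.071 without control 2 and ranged from -0.133 to 0.071 with 1 library left out. Mmp14 ranged from -0.084 to 0.011 with 1 library left out and turned to 0.042 in the 4 libraries with the title block and 0.041 without it. Depth limits a count of 0 to at most 0.211 to 0.278 CPM, depending on the library.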
